A study of Mus musculus with 24 samples.

Results

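Transcripts of 8 genes that mark neurons of the upper cortical layers were followed in 2 medial frontal areas of the mouse, the anterior cingulate cortex (ACC) and the medial prefrontal cortex (mPFC): Cux1, Cux2, Rorb, Rora, Calb1, Rasgrf2, Otof and Lamp5. They were taken from the count tables by symbol, each through 1 Ensembl identifier, and are 8 of the 33364 genes listed. Mice of the C57BL/6 strain, 3 months of age, female and male, carried a spared nerve injury (SNI), in which branches of the sciatic nerve are cut while another is left whole, or a sham operation. Tissue was punched out 2 weeks after surgery, and each library came from the pooled RNA of several animals. There were 8 groups of 3 libraries: female sham, female SNI, male sham and male SNI in each area, 24 libraries in all. The pool, not the animal, is the replicate, and pooling averages out part of the variation between animals.

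The cerebral cortex is built of layers, and the neurons of its upper layers send their axons mainly to other cortical areas. Cux1 and Cux2 are homeodomain transcription factors of these neurons, Rorb and Rora are related nuclear receptors, and Rorb is best known from layer 4, the layer that receives thalamic input in sensory cortex. Medial frontal areas of the mouse have little or no distinct layer 4. Calb1 encodes the calcium buffer calbindin, Rasgrf2 an exchange factor that activates Ras, Otof the calcium sensor otoferlin, known from the inner hair cells of the ear, and Lamp5 a membrane protein of the lysosome-associated family. None of the 8 is confined to upper layer neurons: Lamp5 also marks neurogliaform interneurons, Calb1 is found in interneurons, and Rora and Rorb are also transcribed in astrocytes. In pieces of whole tissue, fewer cells of a type and less RNA per cell cannot be told apart.

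In the GRCm38 build, Cux1 lies at chr5:136248135-136567490, Cux2 at chr5:121856366-122050102 and Otof at chr5:30367062-30461932, all on the minus strand. Rorb (chr19:18930605-19111196) and Rasgrf2 (chr13:91880400-92131656) are also on the minus strand, and Rora (chr9:68653786-69388246), Calb1 (chr4:15881264-15908064) and Lamp5 (chr2:136052239-136069917) on the plus strand. All are protein-coding. In GENCODE an opposite-strand gene overlaps exons of Cux1 (Gm16599) and of Rora (Gm15511), and 3 same-strand genes (A430110C17Rik, Mir721 and Gm38082) overlap Cux1. Whether the counting used strand is not given in the sources used here, so reads of such neighbours may be split or lost.

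Bases before the transcription start are shown for 3 members: Rora and Lamp5, the members whose transcript was lower by the most in the mPFC, and Rorb, the relative of Rora in the set. They come from RefSeq (GRCm38.p6), which held a window for 6 of the 8 genes; Otof and Calb1 had no entry in the table. Each runs 5′ to 3′ on the strand of its gene, stops at the first annotated exon, and has the CpG dinucleotides in capitals. For Lamp5 an annotated exon begins before the RefSeq start, so its bases end 101 bases before that start, while those of Rora and Rorb end at the base next to it. RefSeq holds a second window for Rorb (chr19:19001118-19001367) and for Lamp5 (chr2:136057498-136057747), which are not shown.
Rora, chr9:68653536-68653785, plus strand: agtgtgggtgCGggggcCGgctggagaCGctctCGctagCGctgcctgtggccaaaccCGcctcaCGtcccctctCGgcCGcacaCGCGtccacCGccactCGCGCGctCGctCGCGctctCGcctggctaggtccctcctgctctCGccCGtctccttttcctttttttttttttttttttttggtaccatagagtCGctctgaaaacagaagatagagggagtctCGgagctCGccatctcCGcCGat
Rorb, chr19:19111197-19111446, minus strand: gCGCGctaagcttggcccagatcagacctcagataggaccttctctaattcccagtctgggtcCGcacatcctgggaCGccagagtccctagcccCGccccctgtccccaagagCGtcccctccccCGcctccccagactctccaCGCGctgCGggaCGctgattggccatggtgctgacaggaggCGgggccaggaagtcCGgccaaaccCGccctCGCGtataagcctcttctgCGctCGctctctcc
Lamp5, chr2:136052089-136052238, plus strand: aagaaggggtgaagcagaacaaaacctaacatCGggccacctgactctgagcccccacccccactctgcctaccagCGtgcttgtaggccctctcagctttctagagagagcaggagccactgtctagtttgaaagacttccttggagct
The 250 bases of Rora held 26 CpG, a number that 9.59% of the 32841 windows of 250 bases in the table reach, and those of Rorb held 18, reached by 21.7%. The median window held 6, and the second windows held 4 in Rorb and 1 in Lamp5. The 150 bases of Lamp5 held 2 CpG, and 54.7% of these bases were G or C against 61.2% in Rora and 66% in Rorb. Searched on both strands, the letters AGGTCA, a half-site of nuclear receptors, were in none of the 3 sequences and in 14% of all windows. The letters CCAAT were found once, in Rorb, and are in 33.9% of all windows, while TATAAA was in none of the 3 and is in 12.4%. A match of letters is a description of the sequence only.

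Depth was even across the series, from 23853845 to 32864391 counts per library with a median of 26727282, and 3 counts correspond to 0.0913 to 0.126 CPM, the unit of counts scaled to library size that is used below. Every member stood far above that, the lowest count of any being 432 for Otof in 1 ACC library. All 8 passed the filter on low counts in every comparison. Transcripts of cortical excitatory neurons were abundant in both regions, with Slc17a7, the vesicular glutamate transporter of cortical projection neurons, at 1590 to 1980 CPM in the mPFC and 1440 to 1850 CPM in the ACC. In 5 libraries (female sham mPFC replicates 1 and 2, male sham ACC replicate 3, and male SNI ACC replicates 1 and 2) genes rich in G and C read higher than in the others, by 0.27 to 0.36 (log2) between genes of 58% and 40% GC; in the other 19 this tilt was between -0.29 and 0.17.

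Levels per exon length differed widely between the members. In the mPFC, Lamp5 had the highest level, with a median of 36.8 RPKM (CPM per kilobase of exon) over 12 libraries (28.9 to 43.1), above all libraries of the next member. Rasgrf2 (median 21.6 RPKM) and Calb1 (21.2 RPKM) followed with ranges that overlapped, and Cux2 came next at 14.5 RPKM, clear of its neighbours on both sides. Otof (5.46 RPKM), Rora (3.99 RPKM), Rorb (3.09 RPKM) and Cux1 (2.83 RPKM) closed the order, each overlapping the next. In the ACC, Lamp5 led at 72.3 RPKM, Rasgrf2 (20.9 RPKM) and Calb1 (20 RPKM) again overlapped, and Cux2 stood at 13.1 RPKM. Rora came next in the ACC at 8.54 RPKM, clear of Cux1 (3.55 RPKM), Rorb (2.95 RPKM) and Otof (2.66 RPKM), which overlapped in turn. The order thus differed between the regions only in the lower 4 members, with Otof leading these in the mPFC and last in the ACC.

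**Figure D1:**
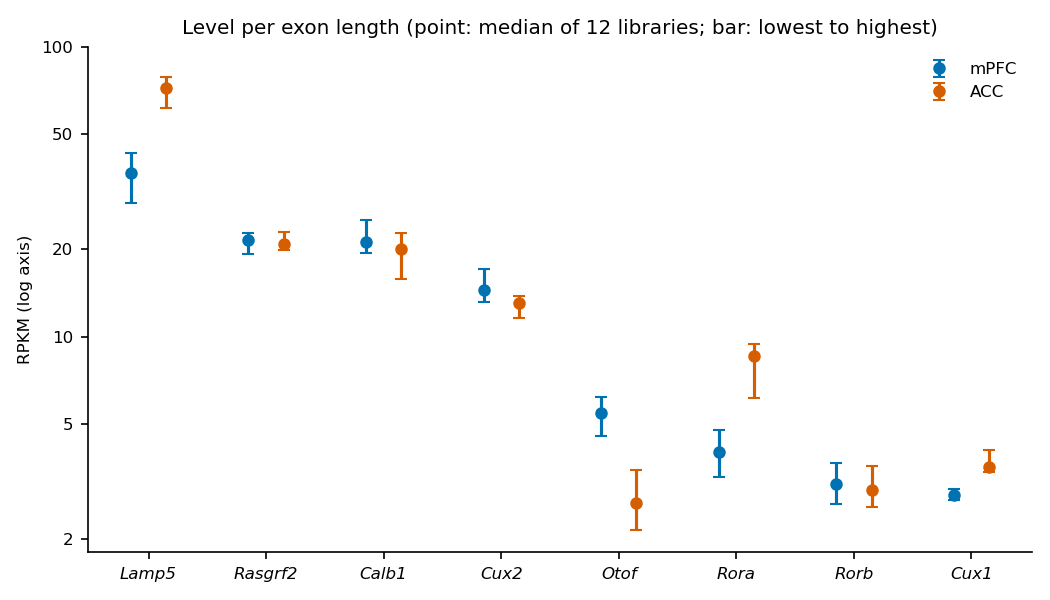
Level of each member per exon length in RPKM (log axis), as the median of the 12 mPFC libraries and of the 12 ACC libraries, with bars from the lowest to the highest library. Lamp5 is highest in both regions, at 36.8 and 72.3 RPKM, and Otof leads the lower 4 members in the mPFC and is last in the ACC.

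The first question was whether the members differed between the areas, which the study compared in sham mice of each sex. Over all 24 libraries, with a term for each combination of sex and treatment, 6 of the 8 members differed at a false discovery rate (FDR) under 0.1 (edgeR quasi-likelihood F-test, Benjamini-Hochberg over all genes). They did not move together: Rora, Lamp5 and Cux1 were lower in the mPFC, and Otof, Cux2 and Calb1 were higher. The same test called 48% of the 18078 genes tested, 23.9% as higher and 24.1% as lower, so 6 of 8 is to be read against that share. The 12 libraries of each region did not overlap for 4 members (Rora, Lamp5, Otof and Cux1), against 4.86% of all genes tested. All fold changes below are log2 values, mPFC minus ACC, on TMM-scaled counts, and levels are TMM-scaled CPM.

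Rora, a nuclear receptor that acts as a transcription factor, was at 54, 42.6 and 50.3 CPM in the female sham mPFC, 62.1, 50.2 and 54.1 in the female SNI mPFC, 60.3, 49.5 and 51.2 in the male sham mPFC, and 53.2, 48.1 and 57.6 in the mPFC of male SNI mice. ACC libraries held 109, 121 and 109 CPM in female sham, 123, 113 and 116 in female SNI, 117, 112 and 96.8 in male sham, and 96.4, 80.1 and 111 in male SNI libraries. The highest mPFC library lay below the lowest ACC library. The mean was 52.8 CPM in the mPFC and 109 in the ACC, a log2 fold change of -1.04 (SE 0.06, FDR 1.33e-13). It was called in each of the 4 groups of sex and treatment, with values from -1.19 (SE 0.09) in female sham to -0.86 (SE 0.10) in male SNI mice. The male SNI ACC had the widest spread of any group for this gene, with an SD of 15.4 CPM around a mean of 95.8.

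Rorb, the related receptor, had means of 34.6 CPM in the mPFC and 33 in the ACC. Its 12 mPFC libraries ran from 29.3 to 40.7 CPM, with a median of 34.2, and its 12 ACC libraries from 28.6 to 39.5, with a median of 32.7. The regions overlapped over nearly their whole range. The log2 fold change was 0.07 (SE 0.05, FDR 0.25), and its 95% interval of -0.03 to 0.16 lies far from the value of Rora. No group of sex and treatment called it, the largest value being 0.15 (SE 0.07, FDR 0.152) in male SNI mice. With a trend on GC content removed from each library, Rorb was called over all libraries at 0.13 (FDR 0.00367) and in female sham mice at 0.21 (FDR 0.0221). It was also called in male SNI mice without male SNI mPFC replicate 3, at 0.21 (FDR 0.0786).

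Lamp5 was at 127, 97.5 and 84.8 CPM in the female sham mPFC, 108, 88.8 and 91.5 in the female SNI mPFC, 116, 108 and 91.7 in the male sham mPFC, and 108, 117 and 125 in the male SNI mPFC. The ACC libraries held 187, 220 and 195 CPM in female sham, 228, 215 and 181 in female SNI, 209, 205 and 231 in male sham, and 222, 194 and 231 in male SNI mice. No mPFC library reached the lowest ACC library. Lamp5 fell from a mean of 210 CPM in the ACC to 105 in the mPFC, a log2 fold change of -1 (SE 0.06, FDR 3.73e-13), and was called in all 4 groups, from -1.11 (SE 0.08) in female SNI to -0.89 (SE 0.07) in male SNI mice.

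Otof, the ferlin that senses calcium at release sites, ran the other way. In the mPFC it was at 46.4, 47.8 and 44.3 CPM in female sham, 42.3, 48.8 and 48.1 in female SNI, 35.9, 39.9 and 40.3 in male sham, and 39.9, 44 and 37.5 in male SNI libraries. In the ACC it was at 26.4, 23.2 and 24.5 CPM in female sham, 19.6, 20.7 and 18.1 in female SNI, 20, 17 and 23.2 in male sham, and 20.6, 27.4 and 21.3 in male SNI libraries. Every mPFC library stood above every ACC library. The log2 fold change was 0.98 (SE 0.06, FDR 6.95e-13), from 0.80 (SE 0.10) in male SNI to 1.26 (SE 0.07) in female SNI mice, and each group called it.

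Cux1 and Cux2, close relatives, differed in opposite directions. Cux1 ran from 54.7 to 59.6 CPM in the mPFC (median 56.6) and from 68.2 to 81.3 in the ACC (median 71.1), without overlap. Its log2 fold change was -0.35 (SE 0.03, FDR 2.98e-10), and the 4 groups gave -0.28 to -0.38, all called. Cux2 ran from 133 to 172 CPM in the mPFC (median 146) and from 117 to 139 in the ACC (median 132), so its ranges overlapped. Its log2 fold change was 0.18 (SE 0.03, FDR 5.5e-05), called in female SNI (0.24, SE 0.05) and male SNI mice (0.23, SE 0.06) and not in female sham (0.11, SE 0.06, FDR 0.232) or male sham mice (0.16, SE 0.07, FDR 0.237). These calls moved with single libraries and with the GC trend: Cux2 was called in male sham mice without male sham ACC replicate 3 (0.21, FDR 0.0145) or with the trend removed (0.14, FDR 0.0278), in female sham mice without female sham mPFC replicate 3 (0.14, FDR 0.0752), and no longer in male SNI mice without male SNI mPFC replicate 2 (0.17, FDR 0.115). Cux1 also encodes a Golgi protein, CASP, from the same gene, and gene counts do not separate the products.

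Calb1 and Rasgrf2 had the smallest differences besides Rorb. Calb1 was at 94.3 to 123 CPM in the mPFC (median 103) and 76.4 to 111 in the ACC (median 97.2), and the regions overlapped. The log2 fold change was 0.16 (SE 0.04, FDR 0.00454). It was 0.21 (SE 0.05) in female SNI and 0.31 (SE 0.06) in male SNI mice, both called, 0.20 (SE 0.08, FDR 0.127) in male sham mice and -0.06 (SE 0.07, FDR 0.597) in female sham mice, where removal of the GC trend turned it to 0.25 (FDR 0.00846) and leaving out female sham mPFC replicate 3 gave -0.14 (FDR 0.0545). In male sham mice Calb1 was called with the trend removed (0.23, FDR 0.022), in a single model of all groups (0.19, FDR 0.0701) and without male sham ACC replicate 3 (0.12, FDR 0.0821). For neither Cux2 nor Calb1 was a difference between sham and SNI mice shown by these calls, since the test of region by SNI over 12 libraries did not pass in either sex. Rasgrf2 had medians of 200 CPM in the mPFC and 193 in the ACC, with a log2 fold change of 0.01 (SE 0.03, FDR 0.878) and a 95% interval of -0.06 to 0.07. In female sham mice alone it was called lower in the mPFC, at 179, 181 and 183 CPM against 207, 211 and 192 in the ACC (-0.16, SE 0.06, FDR 0.0745), and the call was lost without any 1 of 4 of the 6 libraries and with the GC trend removed.

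Counted by group, 5 of 8 members were called in female sham mice, against 28.5% of all genes tested there, and 6 of 8 in female SNI mice, against 27.6%. The counts were 4 of 8 in male sham mice, against 14.2%, and 6 of 8 in male SNI mice, against 21%. Region accounted for 91.8% of the variance of Rora over the 24 libraries (log2 CPM), 91.1% for Lamp5, 89% for Otof and 87.8% for Cux1, then 48.3% for Cux2, 24% for Calb1, 6.29% for Rorb and 0.27% for Rasgrf2. Treatment accounted for at most 6.23% for any member, and sex for 33.7% for Calb1, 22.4% for Rorb and less than 4% for the others. In the libraries of high GC tilt, Calb1 was at 79.6 CPM (male sham ACC replicate 3), 76.4 and 82.5 CPM (male SNI ACC replicates 1 and 2). It was at 94.3 and 102 CPM in female sham mPFC replicates 1 and 2. The part of the tilt in these shares was not tested. The pooled SD within groups was 0.06 (log2) for Rasgrf2 and 0.17 for Lamp5, the extremes among the members.

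**Figure D2:**
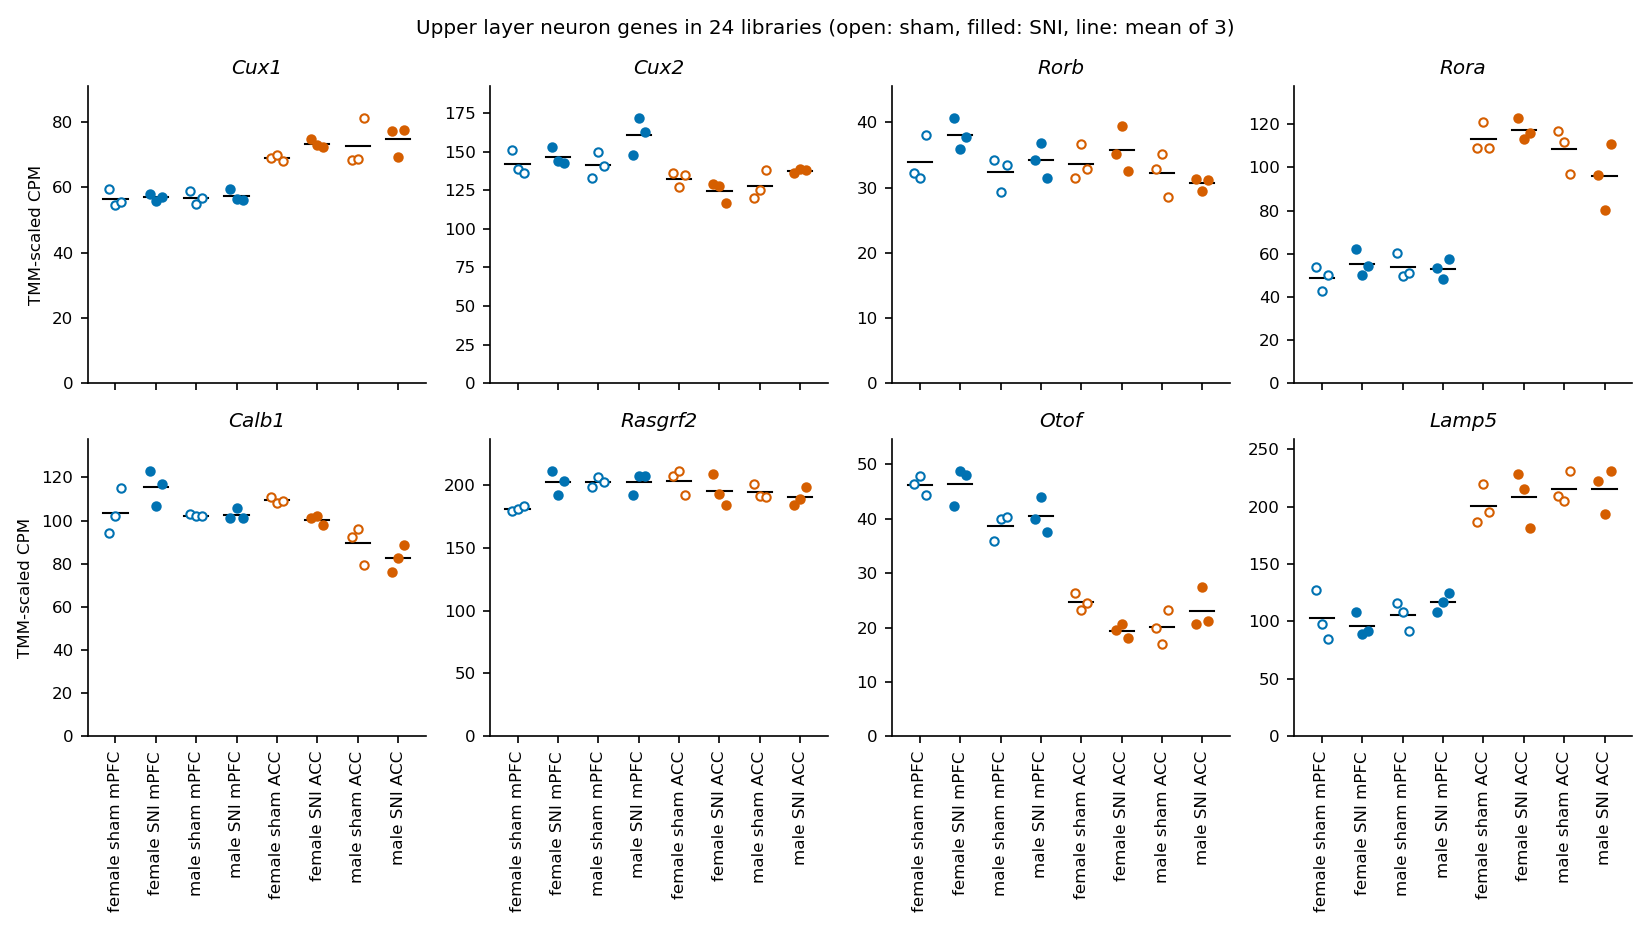
TMM-scaled CPM of each member in each of the 24 libraries, grouped by sex, treatment and region (blue: mPFC, orange: ACC, open: sham, filled: SNI, line: mean of 3). Rora, Lamp5 and Cux1 lie lower in every mPFC library than in any ACC library, and Otof higher.

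**Figure D3:**
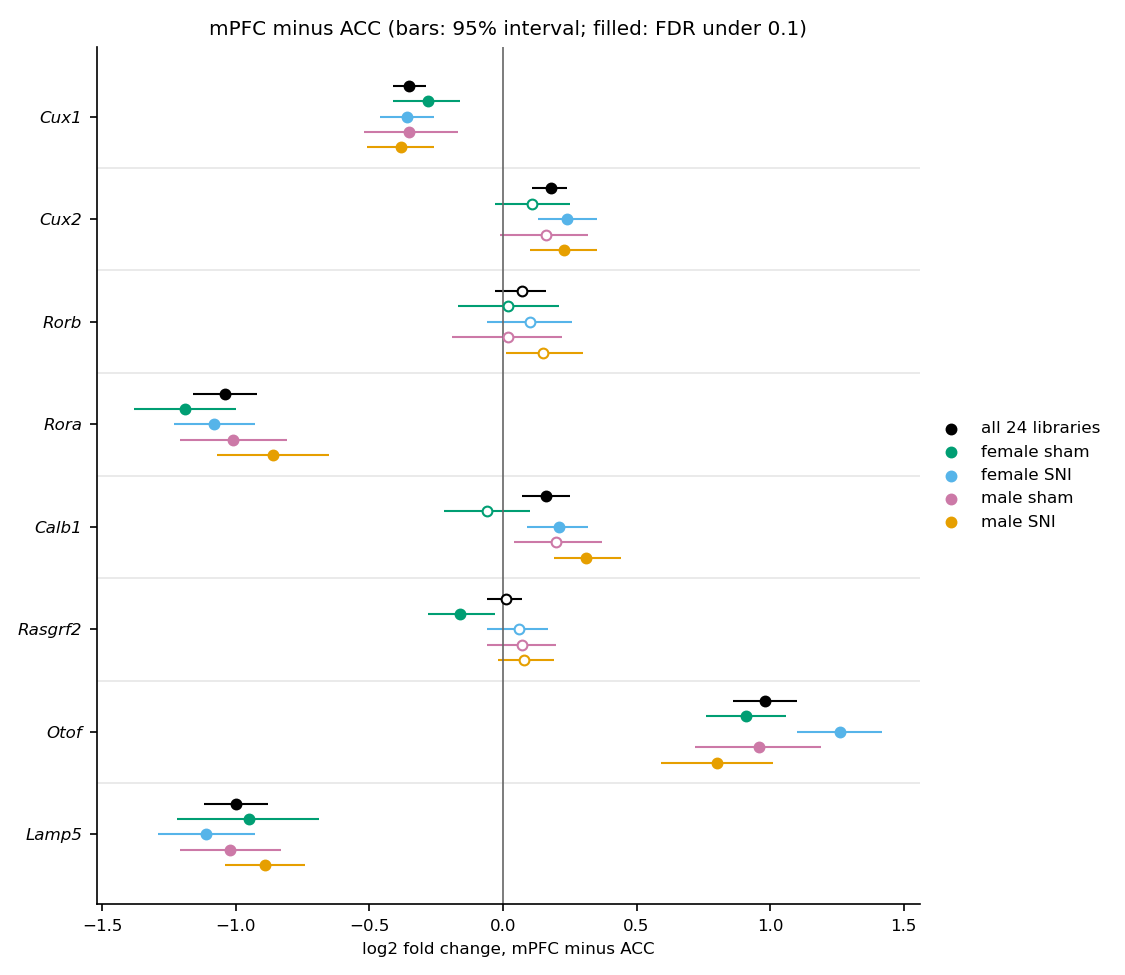
Log2 fold change of each member, mPFC minus ACC, over all 24 libraries and in each group of sex and treatment, with 95% intervals (filled: FDR under 0.1). Rora and Lamp5 lie near -1 and Otof near 0.98 over all libraries, and Rorb and Rasgrf2 near 0.

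The other genes known from layers 2 to 4 were also mixed, with more of them lower in the mPFC. Of 24 tested, 14 were lower in the mPFC, 6 were higher and 4 did not pass the test, and the median log2 fold change was -0.2 against 0 over all genes. The lowest FDR among the lower genes belonged to Rspo1, a secreted activator of Wnt signalling, at a median of 4.25 CPM in the mPFC against 13.4 in the ACC (-1.75, SE 0.10), then Plcxd2 (74.7 against 134 CPM, -0.74, SE 0.05) and Kcnh5, a voltage-gated potassium channel (16.4 against 29.7 CPM, -0.84, SE 0.06). Among the higher genes it belonged to Wfs1, which encodes wolframin of the endoplasmic reticulum (167 against 97 CPM, 0.71, SE 0.04), Matn2, a matrix protein (47.2 against 32.1 CPM, 0.62, SE 0.04), and Rrad, a small GTPase (3.71 against 1.92 CPM, 0.91, SE 0.10). So this list, like the 8 members, held genes that differed strongly in both directions.

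Of 14 relatives of the members, 11 passed the filter, and 3 were higher in the mPFC, 5 lower and 3 not called. Satb1, which carries CUT domains as Cux1 and Cux2 do, was lower (-0.35, SE 0.03), as was Onecut2 (-0.2, SE 0.08). Calb2, the calretinin gene, was higher (0.32, SE 0.05). Of the ferlins, relatives of Otof, Dysf (0.43, SE 0.07) and Fer1l5 (0.5, SE 0.19) were higher and Myof lower (-0.39, SE 0.12). Lamp2 was lower (-0.2, SE 0.05), and Lamp1 (-0.04, SE 0.03) and Rasgrf1 (0.01, SE 0.03) were not called. Fer1l4, Fer1l6 and Lamp3 did not pass the filter, and Fer1l4 and Lamp3 had a median of 0 CPM in both areas.

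Lists for deeper layers and other cells were counted the same way. Of 17 layer 5 genes tested 4 were higher in the mPFC and 10 lower (median -0.13), and of 14 genes of layers 6 and 6b 7 were higher and 4 lower (median 0.17). By group, the median for layers 6 and 6b was 0.39 in female sham, 0.3 in male sham, 0.16 in female SNI and -0.15 in male SNI mice. Shared excitatory neuron genes gave 2 higher and 3 lower of 8 (median 0), and inhibitory neuron genes 6 higher and 6 lower of 15 (median 0.01).

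Markers of cells that also transcribe some of the members, and of other cells, were counted too. Over the 24 libraries the test called 48% of all genes. Of 12 astrocyte genes 10 were lower in the mPFC and 1 was higher (median -0.22), and their summed level was 5300 to 6130 CPM in the mPFC against 5790 to 6780 in the ACC. The values of that list ran from -0.37 (SE 0.03) for Atp1b2 to 0.06 (SE 0.02) for Slc1a3. For Lamp5, the 10 genes of neurogliaform and layer 1 interneurons gave 4 higher and 5 lower (median -0.1), with sums of 566 to 603 CPM against 535 to 600. The higher genes were Nos1 (medians of 129 against 59.2 CPM, 1.11), Lsp1 (0.73), Ndnf (0.2) and Reln (0.2). The lower genes were Sv2c (-0.79), Id2 (-0.4), Gabrd (-0.4), Cxcl14 (-0.37) and Npy (-0.24). Near-equal sums thus hide opposite differences of single genes. Endothelial genes were lower in 10 of 10 (median -0.27), oligodendrocyte genes in 11 of 15 (median -0.33; 1220 to 4190 CPM summed against 2770 to 4540), microglia genes were higher in 6 of 10 (median 0.12) and striatal genes higher in 5 and lower in 2 of 10 (median 0.14). The oligodendrocyte genes were lower mainly in SNI mice, with 14 of 15 in females (median -0.74) and 12 of 15 in males (median -0.45). In sham mice 2 of 15 were lower in females (median 0.05) and 0 of 15 in males (median -0.05). No gene of the lists in this paragraph was at 0 in any library. The part of these cells in the results for the members was not tested.

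**Figure D4:**
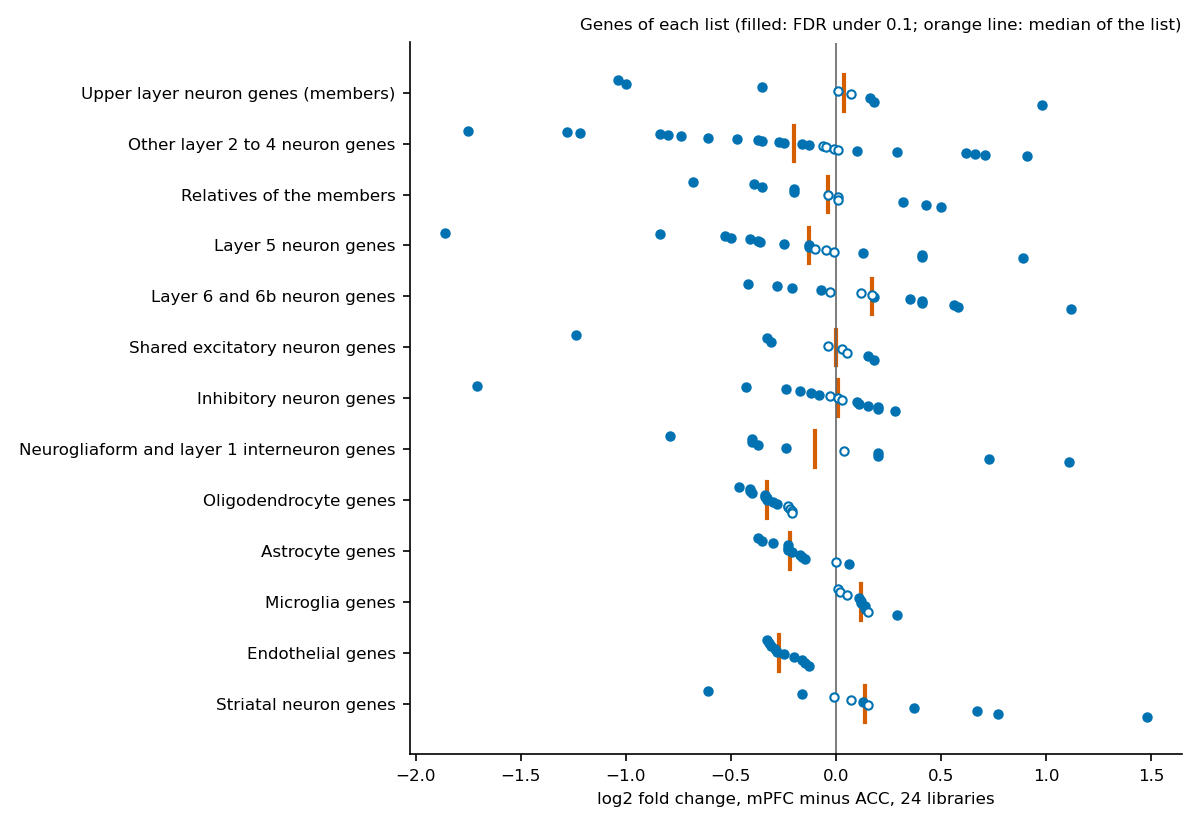
Log2 fold change, mPFC minus ACC over 24 libraries, of every tested gene of each list (filled: FDR under 0.1, orange line: median of the list). The members and the other layer 2 to 4 genes spread to both sides of 0, while oligodendrocyte and endothelial genes all lie below it. In sham mice alone the oligodendrocyte median was 0.05 in females and -0.05 in males.

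The second question was whether SNI changed the members. None of the 8 passed the FDR threshold in any group (edgeR quasi-likelihood F-test). The test called 0.00592% of all genes in the female mPFC, 0.024% in the female ACC, 0.494% in the male mPFC and 0.00599% in the male ACC. With an unadjusted p under 0.05 there were 1 member in the female mPFC (12.1% of all genes tested), 3 in the female ACC (6.67%), 1 in the male mPFC (11.2%) and 0 in the male ACC (4.48%). DESeq2 called 1 member in the female ACC (Otof), among 37 genes or 0.222% of those tested, and 1 in the male mPFC (Cux2), among 283 genes or 1.67%. With both sexes in 1 fit, edgeR called 0% of all genes for the mPFC and 0% for the ACC, and DESeq2 called 0.357% and 0%. No member was called by either tool. In the edgeR fit 1 member in each region had an unadjusted p under 0.05, against 7.33% of all genes for the mPFC and 5.56% for the ACC. The members' values in that fit were 0.02 to 0.13 for the mPFC and -0.11 to 0.06 for the ACC.

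Otof in the female ACC came nearest by its unadjusted p, with SNI libraries at 19.6, 20.7 and 18.1 CPM and sham libraries at 26.4, 23.2 and 24.5. All SNI libraries lay below all sham libraries. The log2 fold change, SNI minus sham, was -0.35 (SE 0.07, 95% interval -0.5 to -0.2), with an FDR of 0.309 by the edgeR quasi-likelihood F-test, and DESeq2 gave the same value with an FDR of 0.0652. It was called without female sham ACC replicate 2 (FDR 0.0614), and over 13 alternatives the FDR ran from 0.000242, without the low-count filter, to 0.876. In the male ACC the SNI libraries were at 20.6, 27.4 and 21.3 CPM and the sham libraries at 20, 17 and 23.2 (0.2, SE 0.14), and these overlapped. The difference between the sexes was -0.56 (SE 0.17, FDR 0.753) and did not pass the test; without male sham ACC replicate 3 it was -0.67 with an FDR of 0.0355, and over 19 alternatives the FDR ran from 0.0329 to 0.975. In the mPFC, Otof differed by 0.01 (SE 0.08) in females and 0.07 (SE 0.07) in males.

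Cux2 in the male mPFC was at 148, 172 and 163 CPM after SNI and 133, 150 and 141 after the sham operation. The groups overlapped by 1 library on each side. The log2 fold change was 0.19 (SE 0.06, 95% interval 0.07 to 0.32, FDR 0.22), and DESeq2 gave 0.20 with an FDR of 0.0807. Without male SNI mPFC replicate 1 it was 0.25 with an FDR of 0.0895, and over 13 alternatives the FDR ran from 0.0122 to 0.719. In this comparison 10 of 15 oligodendrocyte genes and 4 of 14 genes of layers 6 and 6b were lower after SNI, with summed oligodendrocyte levels of 2160 to 3140 CPM against 3640 to 4190. Of the other layer 2 to 4 genes 1 of 24 was lower and none higher. The part of these changes in the value of Cux2 was not tested.

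Every other value of a member had an FDR of 0.403 or more. Rasgrf2 in the female mPFC was at 211, 192 and 203 CPM after SNI and 179, 181 and 183 after sham surgery (0.16, SE 0.06, FDR 0.403), without overlap. In the female ACC, Calb1 was at 101, 102 and 98 CPM after SNI and 111, 108 and 109 after sham (-0.12, SE 0.04, FDR 0.635), and Cux1 at 74.7, 73.1 and 72.3 against 69.1, 70 and 68.2 (0.08, SE 0.04, FDR 0.722), both without overlap. The 3 libraries of each group did not overlap for 1 member in the female mPFC (15% of all genes), 3 in the female ACC (11.8%), 0 in the male mPFC (16.9%) and 0 in the male ACC (8.19%). Rora and Lamp5, with large differences between regions, differed after SNI by -0.19 to 0.18 and by -0.1 to 0.15 over the 4 groups. Their 95% intervals reached -0.44 for Rora in the male ACC and -0.37 for Lamp5 in the female mPFC. Rorb differed by 0.17 (SE 0.09) in the female mPFC, 0.08 (SE 0.07) in the female ACC, 0.08 (SE 0.07) in the male mPFC and -0.08 (SE 0.09) in the male ACC.

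**Figure D5:**
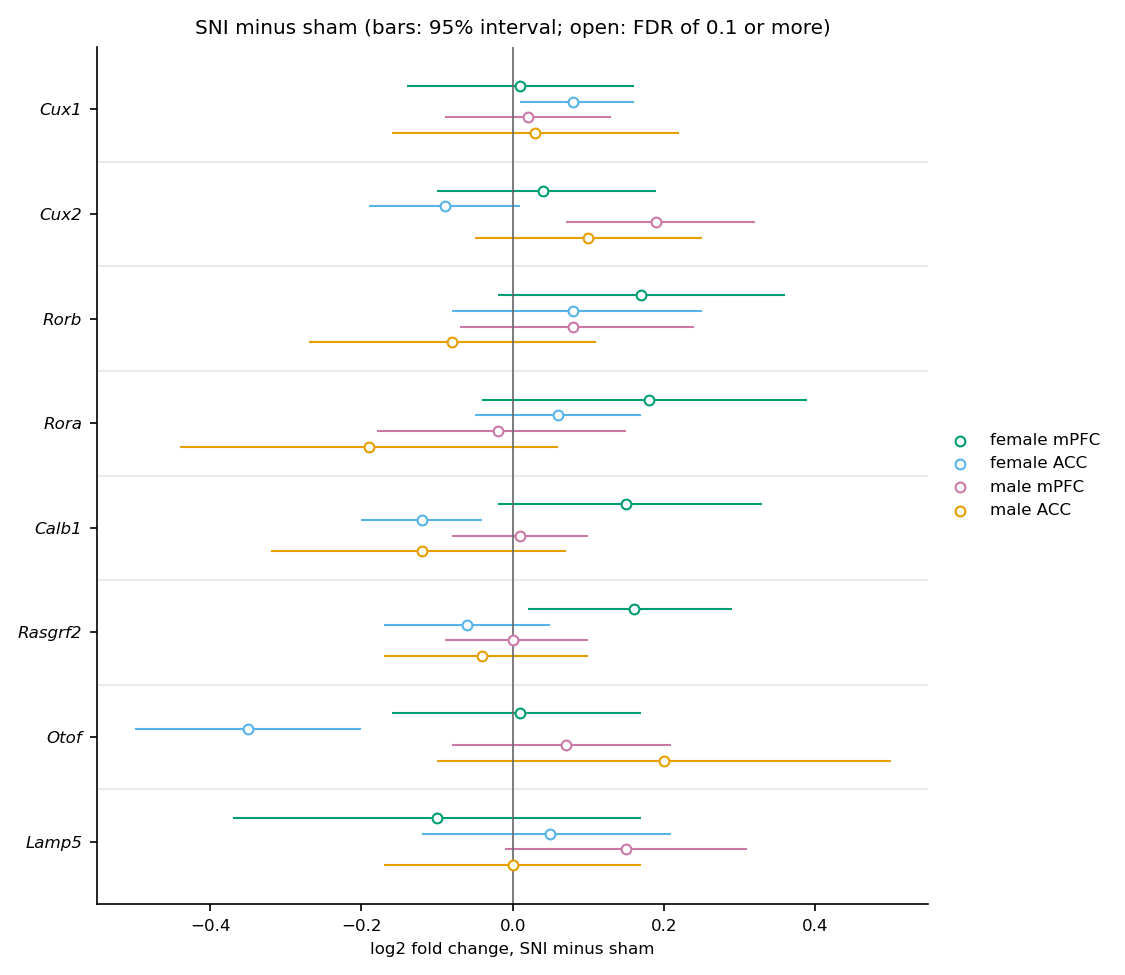
Log2 fold change of each member, SNI minus sham, in each sex and region with 95% intervals; all points are open because none had an FDR under 0.1. Otof in the female ACC, at -0.35, lies farthest from 0.

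Sham females and sham males did not differ in any member at an FDR under 0.1, by edgeR or by DESeq2. Of all genes edgeR called 0.177% in the mPFC and 0.0958% in the ACC, and DESeq2 called 0.651% and 0.377%. At an unadjusted p under 0.05 by edgeR there were 2 members in each region, against 10.6% of all genes in the mPFC and 6.64% in the ACC. Otof was higher in females in the mPFC (46.2 against 38.7 CPM, 0.26, SE 0.07, FDR 0.256) and in the ACC (24.7 against 20.1 CPM, 0.3, SE 0.11, FDR 0.694), though neither value passed. Rasgrf2 stood at 181 against 202 CPM in the mPFC (-0.15, SE 0.05, FDR 0.351) and Calb1 at 109 against 89.5 CPM in the ACC (0.28, SE 0.07, FDR 0.549). The other members lay between -0.13 for Rora and 0.07 for Rorb in the mPFC, and between -0.1 for Lamp5 and 0.07 for Rasgrf2 in the ACC.

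Whether SNI acted differently by region or sex, or region by sex, was tested over 12 libraries each. No member passed, and the share of all genes called by edgeR was 0% for region by SNI in females, 0% in males, 0% for sex by SNI in the mPFC, 0% in the ACC, and 0.0115% for sex by region in sham mice. At an unadjusted p under 0.05 by edgeR there were 3, 0, 1, 2 and 2 members in that order, against 11.1%, 3.19%, 15.8%, 5.92% and 7.29% of all genes. DESeq2 called none of the members, and 0.0344%, 0.0171%, 4.57%, 0.0116% and 0.0458% of all genes in the same order. Over the 8 members the log2 differences ran from -0.16 to 0.35, -0.14 to 0.16, -0.25 to 0.2, -0.56 to 0.23 and -0.27 to 0.06 in the same order. The region by SNI values in females were 0.35 (SE 0.10) for Otof, 0.27 (SE 0.10) for Calb1 and 0.22 (SE 0.08) for Rasgrf2, all with an FDR of 0.428. Without female sham mPFC replicate 3 these 3 members passed, with FDRs of 0.0791, 0.0284 and 0.0996, and 2070 genes (11.6%) were called in all where none had been. With the GC trend removed the value of Calb1 was 0.05. The region comparisons and the SNI comparisons share libraries, sham and SNI alike, and the SNI comparisons within a region share none between the sexes.

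For the 4 members whose regions did not overlap, high correlations of either sign across the 24 libraries follow from that separation. Pearson's r of log2 CPM was 0.94 between Rora and Lamp5, 0.95 between Cux1 and Lamp5, 0.91 between Cux1 and Rora, and -0.96 between Rora and Otof. Libraries of both regions enter these values, so they largely restate the difference between the regions and do not measure covariation within a region. After the 8 group means were removed, Rora and Otof still ran against each other (r = -0.75, 24 libraries), and Rorb and Calb1 ran together (r = 0.62), while Cux1 and Rora had r = 0.28 and Otof and Lamp5 r = -0.18. In the longest transcript, G and C made up 40.9% of Rora, 56.7% of Otof, 41.6% of Rorb and 36.8% of Calb1. They made up 50% of Cux1 and 50.6% of Lamp5. The libraries differed in GC tilt, and the part of that tilt in these correlations was not tested.

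Among 14715 genes with a mean of at least 1 CPM, those most like each member over the 24 libraries were Abcd2 (r = 0.99) and Nova1 (0.99) for Rora, Atp2b2 (0.99) and Npnt (0.99) for Lamp5, Cpne6 (0.98) and Vwa3a (0.98) for Otof, and Atp1b2 (0.98) and Fndc5 (0.97) for Cux1. For the members with smaller differences they were Ajap1 (0.91) and Grasp (0.88) for Cux2, Arl4a (0.93) and Ate1 (0.93) for Calb1, Acvr1c (0.81) and Dgkh (0.80) for Rorb, and Slc39a10 (0.78) and Ube2e3 (0.78) for Rasgrf2. With the group means removed, Abcd2 (0.93) and Mboat2 (0.90) led for Rora, Atp2b2 (0.90) and Nefm (0.91) for Lamp5, Ajap1 (0.91) and Lrtm2 (0.87) for Cux2, and Atp1b2 (0.83) and Pygm (0.86) for Cux1, so 1 gene of each pair was the same for these 4 members. The other 4 had different genes: Nectin2 (0.85) and Col6a2 (0.85) for Otof, Nipa2 (0.92) and Dbpht2 (0.92) for Calb1, Tsga10 (0.86) and Homer1 (0.85) for Rorb, and Ppm1h (0.86) and Coch (0.86) for Rasgrf2. In both measures the points share the depth and the GC tilt of their libraries.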

How the data were processed

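RNA-seq counts of 24 libraries were used, 3 pools of animals per sex, treatment and region. The authors deposited 4 tables of raw counts per Ensembl gene, 1 for each sex and region; per the submitters' processing notes, reads were trimmed (Trimmomatic 0.36), filtered against ribosomal RNA with Bowtie2 (given as version 2.33), mapped to GRCm38 with HISAT2 2.1.0 and counted with HTSeq 0.9.1. The annotation release and strand mode are not given in the sources used here, nor whether the pools of both regions came from the same animals. All columns were used. Symbols, positions and exon lengths were taken from GENCODE M21, which names 33336 of the 33364 genes.

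Counts were analysed in R 4.3.3 with edgeR 4.0.16 (the notes name edgeR 3.34.0): filterByExpr on the groups compared (minimum count 10, total 15), TMM scaling, and the quasi-likelihood F-test with the legacy setting, at an FDR under 0.1 over all genes. Standard errors were derived from the F statistic. Each comparison of 2 groups used its own 6 libraries, each interaction and each SNI comparison over both sexes 12, and the pooled region comparison 24. Counts of replicate libraries differed beyond sampling noise in all 24 pairs of 1 group (chi-square per gene 2.67 to 19.9). Correlations used log2 CPM with a prior count of 2. Alternatives were DESeq2 1.42.0, RLE size factors, no low-count filter, a block on the replicate number, 1 model of the 8 groups, the newer quasi-likelihood method, removal of a GC trend, and each library left out in turn; leaving out 5 libraries of high GC tilt together was chosen after seeing the data. The steps were tested on simulated data.

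The members, gene lists and tests were chosen with earlier results of these data known. All 8 members are covered in every comparison, by value or by their range, with the 3 higher and 3 lower genes of smallest FDR among other layer 2 to 4 genes, the relatives that passed the filter (2 of them are not reported here), and the 2 genes most like each member by Pearson's r; Slc17a7 was added as a tissue check. P-values measure the spread between pools, and depth limits only counting error.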

Additional observations from a re-analysis of the deposited data

How the results depend on the processing

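Over all 24 libraries 6 members differed between the regions under every alternative run. The alternatives included each library left out and the 5 libraries of high GC tilt left out together. Removing the GC trend added Rorb (0.13, FDR 0.00367). That setting called 52.5% of all genes, against 48% in the test reported above and 25.3% without the low-count filter. Values of single members were followed for every member in the region comparisons. In the other comparisons they were followed only for members with an unadjusted p under 0.05 by edgeR. Of the values followed, 524 of 558 kept their direction and their side of the threshold without a library. Under the other alternatives 396 of 415 did so. Changes in members that were not followed are not in these counts. With the GC trend removed, the region value in female sham mice was -0.01 for Cux2 and 0.25 for Calb1 (FDR 0.00846), and the sex by region value of Calb1 was 0.03; without the low-count filter Rorb in male sham mice was -0.02. Leaving out a library gave -0.07 to 0.09 for Rorb in female sham, -0.06 to 0.08 for Rorb in male sham and -0.14 to 0 for Calb1 in female sham mice, and -0.01 to 0.02 for Rasgrf2 over all libraries. The cause was not tested.

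Where no member was called, some settings called a few. In parentheses is the share of all genes called in the same setting. DESeq2 called 1 member after SNI in the female ACC (0.222%) and 1 in the mPFC of males (1.67%). Without the low-count filter there was 1 in each of these (1.38% and 2.01%), 1 between the sexes in the sham mPFC (1.58%), 1 for region by SNI in females (2.16%) and 1 for sex by SNI in the ACC (0.357%). The number of members called without 1 library was 0 to 1 after SNI in the female ACC (1 without female sham ACC replicate 2, 0.8%), 0 to 1 in the male mPFC (without male SNI mPFC replicate 1, 0.73%), 0 to 1 in the male ACC (without male sham ACC replicate 3, 13.5%) and 0 to 2 in the female mPFC (without female sham mPFC replicate 3, 15.9%). It was 0 to 2 for sex by SNI in the ACC (without male sham ACC replicate 3, 9.65%), and, without female sham mPFC replicate 3, up to 2 between the sexes in the sham mPFC (15.5%), 3 for region by SNI in females (11.6%) and 1 for sex by SNI in the mPFC (18.3%). Genes called after SNI in the male mPFC numbered 84, against 283 by DESeq2, 596 without the filter, 38 with the GC trend removed and 0 in the single model.

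The replicate numbers did not pair the libraries: same-numbered libraries of the regions had correlated deviations (r over 0.1) in 1 of 12 pairs (-0.08 to 0.24), of the treatments in 3 of 12 and of the sexes in 2 of 6. With the replicate number as a block, 1 member (Cux2, FDR 0.0122) and 745 genes (4.39%) were called after SNI in the male mPFC, and Rasgrf2 lost its call in female sham mice (FDR 0.132).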
